A study of Mus musculus with 15 samples.

Results

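The unfolded protein response and secretory machinery was followed through 38 genes, chosen by name and looked up by their Ensembl identifiers among the 54838 genes of the deposited count table. All 38 were found and all passed the filter on low counts. By role, 6 encode sensors and transcription factors, 12 chaperones and folding factors, 3 protein disulfide isomerases, 10 parts of the translocation and signal peptidase machinery, 5 factors of ER-associated degradation and 2 subunits of the COPII coat.

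RNA was sequenced from 15 libraries of mouse splenic B cells. All came from WT male mice, 3 months old, whose spleens were taken 9 days after immunisation with sheep red blood cells (SRBC), followed by pre-enrichment on B220 and sorting. Naive B cells gave 3 libraries and germinal centre (GC) B cells gave 3. The other 9 were naive B cells activated for 5 days in embryonic stem cell medium (KO-DMEM), 3 libraries each with 80 ng/ml mouse IL-4 and 5 µg/ml anti-CD40, with 2 µM CpG or with 25 µg/ml LPS. From the labels it is unclear if the cultures with CpG and LPS also held IL-4. Each group has replicates lettered A, B and C, and nothing in the labels says whether a letter stands for an animal, a pool or a culture day, so p-values measure the spread between these libraries only. Libraries are named here by their titled stimulus and letter, for example CD40 A.

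Cells that secrete much protein fold it in the endoplasmic reticulum (ER). When unfolded protein builds up there, the sensors IRE1 (gene Ern1), PERK (Eif2ak3) and ATF6 (Atf6) start the unfolded protein response: IRE1 splices the mRNA of the transcription factor XBP1, PERK slows translation and favours ATF4, and ATF6 is cut to release a transcription factor. Their targets include the chaperones, translocon subunits, degradation factors and transport coats listed above, and B cells are known to expand this machinery as they become antibody-secreting plasma cells. Splicing of Xbp1 and cleavage of ATF6 cannot be read from counts per gene.

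Promoters of the genes are shown first, since the ER stress response element (ERSE) is the textbook binding site of ATF6 and XBP1 upstream of this gene class. A promoter from RefSeq (build GRCm38.p6), reaching from 250 bases before to 50 bases after the transcript start, was matched by symbol for 31 of the 38 genes. Both strands were searched for ERSE (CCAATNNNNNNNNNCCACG), ERSE-II (ATTGGNCCACG), the UPR element UPRE (TGACGTG) and the ATF4 and CHOP composite element CARE (TGATGNAAT), and no matches of different motifs overlapped. ERSE was found in 9 of the 31 genes (29%), against 0.137% of the 27025 genes with a promoter in the table. Each match is printed in the direction of the motif, with its fixed bases in capitals and the free bases in lower case, to show how the 9 free bases differ between genes.
Hspa5: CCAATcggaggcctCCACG
Hsp90b1, farther from the start: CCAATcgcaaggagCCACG
Hsp90b1, nearer to the start: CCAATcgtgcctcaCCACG
Calr: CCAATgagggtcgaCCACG
Canx: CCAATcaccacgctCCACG
Pdia6: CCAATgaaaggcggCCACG
Creld2: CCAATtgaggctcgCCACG
Dnajc3: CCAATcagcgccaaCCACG
Derl3: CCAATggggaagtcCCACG
Syvn1: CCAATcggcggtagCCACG

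ERSE-II was found in Herpud1 and Dnajb11, which is 6.45% of the 31 genes against 0.0444% of all. Their matches differ at the single free base.
Herpud1: ATTGGgCCACG
Dnajb11: ATTGGcCCACG

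UPRE was found in Hspa5 and Sec24d (6.45%, against 2.22% of all genes) and CARE in none of the 31 (against 1.08%). A match is a run of letters and not evidence of binding.

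Longer stretches are given for 3 genes that differ in their ERSE arrangement and recur in the results below: Hspa5, with 1 match close to the start, Hsp90b1, with 2 matches on opposite strands, and Derl3, whose match lies on the opposite strand. Each reaches from 220 to 31 bases before the RefSeq start, is written 5′ to 3′ on the strand of the gene and has the ERSE in capitals.
Hspa5, chr2:34771870-34772059, plus strand: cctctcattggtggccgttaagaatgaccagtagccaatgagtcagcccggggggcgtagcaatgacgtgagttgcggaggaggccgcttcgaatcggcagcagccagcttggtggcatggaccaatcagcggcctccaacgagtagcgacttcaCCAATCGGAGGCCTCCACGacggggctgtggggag
Hsp90b1, chr10:86705475-86705664, minus strand: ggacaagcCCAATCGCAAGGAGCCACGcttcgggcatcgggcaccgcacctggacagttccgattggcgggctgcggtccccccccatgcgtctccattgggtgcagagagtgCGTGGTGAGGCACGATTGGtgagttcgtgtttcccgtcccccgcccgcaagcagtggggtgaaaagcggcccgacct
Derl3, chr10:75893178-75893367, plus strand: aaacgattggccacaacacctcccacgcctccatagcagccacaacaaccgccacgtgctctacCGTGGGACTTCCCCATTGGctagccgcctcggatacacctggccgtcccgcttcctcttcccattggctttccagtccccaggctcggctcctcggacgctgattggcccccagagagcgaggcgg

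**Figure D1:**
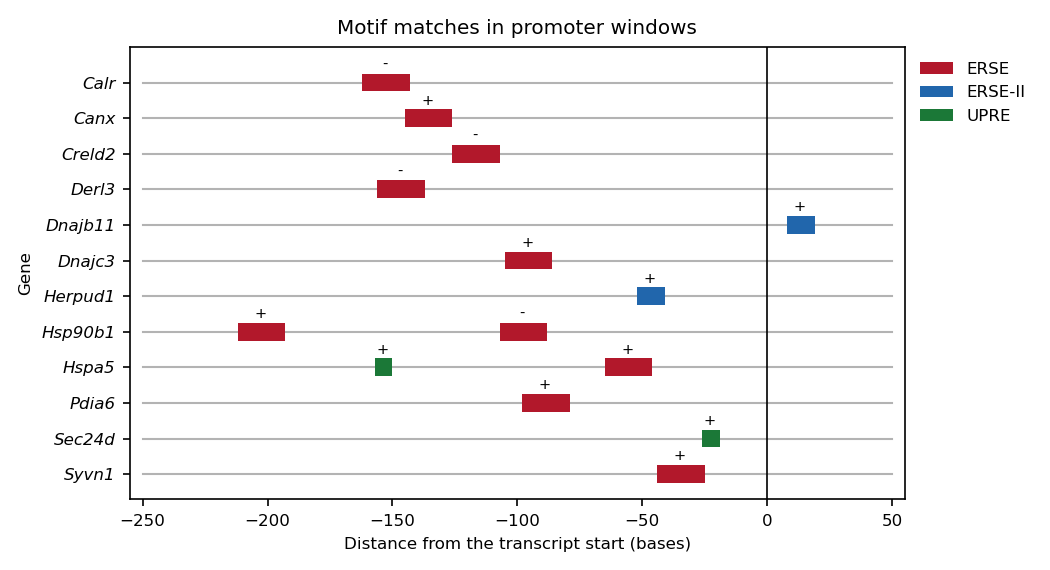
Motif matches in the promoter windows of the 12 genes with any match. The horizontal axis is the distance from the RefSeq transcript start in bases, each grey line is 1 promoter from 250 bases before to 50 bases after the start, boxes are matches coloured by motif, and + or - gives the strand relative to the gene. All 10 ERSE matches lie before the start, and the ERSE-II match of Dnajb11 lies after it.

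The libraries held 25397624 to 36272197 counts each. Naive B had the fewest genes with a count (11523, against 13920 in naive A and 18866 in naive C). It also had the highest summed level of 6 erythroid marker genes, which was 298 CPM (counts scaled to a common library size) there, 29.2 in naive A, 3.29 in naive C and at most 0.929 in any activated library. In both measures naive A lay between naive B and naive C, and in genes with a count it was nearer to naive B. The activated libraries group by letter and not by stimulus: with the mean of each stimulus taken out, same-letter libraries correlated across genes with r of 0.636 to 0.761. Titles with exchanged letter and stimulus cannot be told apart from this pattern. To avoid counting same-letter libraries as separate replicates, the 3 activated libraries of a letter were summed before activated cells were compared with naive and GC cells. Levels below are CPM after TMM scaling, and an activated mean ± SD is over the 3 letter means (n = 3). As these are bulk samples, a higher share of cells with a transcript cannot be told apart from more transcript per cell. Markers of naive B cells (6 genes, 6888 to 8577 CPM in naive libraries and 312 to 1443 elsewhere) and of GC B cells (6 genes, 2063 to 2323 CPM in GC libraries and at most 1090 elsewhere) followed the labels.

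Together the 38 genes were the most abundant in activated cells. Their summed level was 5407, 7013 and 5915 CPM in the naive libraries A, B and C and 6388, 6684 and 6120 in GC A, B and C. In the activated libraries it was 10207 to 10353 CPM under letter A, 7866 to 8191 under B and 14446 to 16611 under C. The naive and GC ranges overlap, every activated library lies above both, and the letters do not overlap each other. As a share of all counts the genes took 0.606% ± 0.026 in naive, 0.656% ± 0.026 in GC and 1.13% ± 0.40 in activated cells (SD, n = 3 each).

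**Figure D2:**
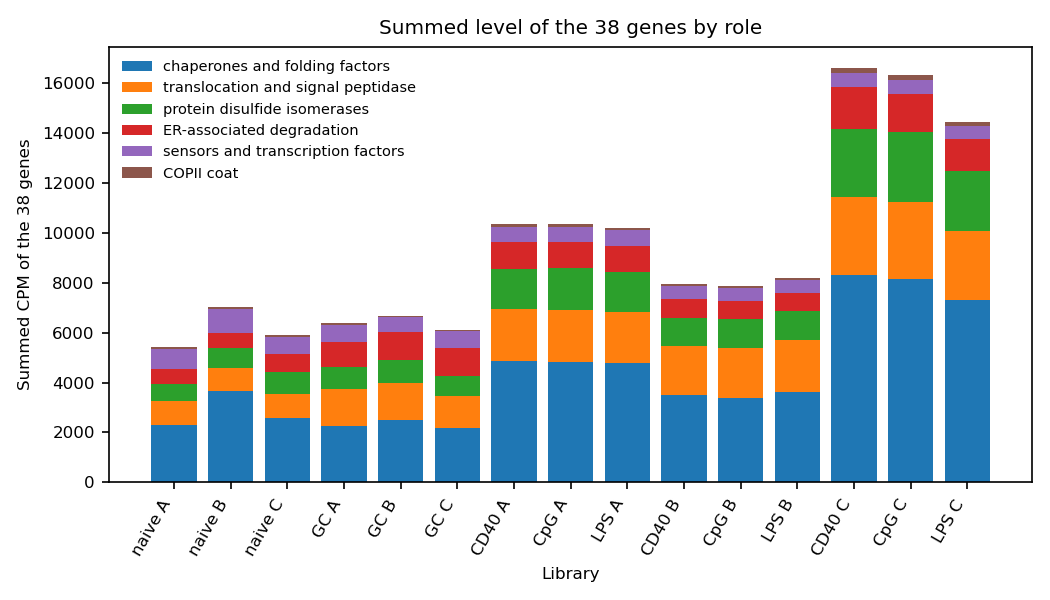
Summed level of the 38 genes in each of the 15 libraries, in CPM, stacked by role. The 3 libraries of a letter are alike in the activated cells, and the bars under letter C (14446 to 16611 CPM) are the tallest. The chaperones and folding factors are the largest class in every library.

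Compared with naive cells, GC cells had 11 of the 38 genes higher and 4 lower at an adjusted p under 0.05 in edgeR's quasi-likelihood test. That is 28.95% and 10.5%, where over all 16029 genes tested 16.4% were higher and 15.4% lower. The median log2 fold change of the 38 was 0.41, and that of all genes 0.02. Set against naive cells, activated cells had 27 of the genes higher and 3 lower (71.1% and 7.89%, against 17.9% and 12.5% of all genes), with a median of 1.11 against 0.19. In activated against GC cells 18 were higher and 2 lower (47.4% and 5.26%, against 14.3% and 10.6%), with a median of 1.05 against 0.07. These 3 comparisons share their control libraries and are not independent of each other. Every activated library exceeded every naive library for 24 of the genes (63.2%) and every GC library for 21 (55.3%). The shares were 22.4% and 23.6% of the 15727 genes that passed the filter within the activated libraries alone. Without naive A, activated cells had 19 genes higher than naive cells and 2 lower, the fewest calls of any alternative. Without naive B they had 31 higher and 2 lower, and without letter C 21 higher and 3 lower. With only the columns compared 20 were higher and 2 lower.

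**Figure D3:**
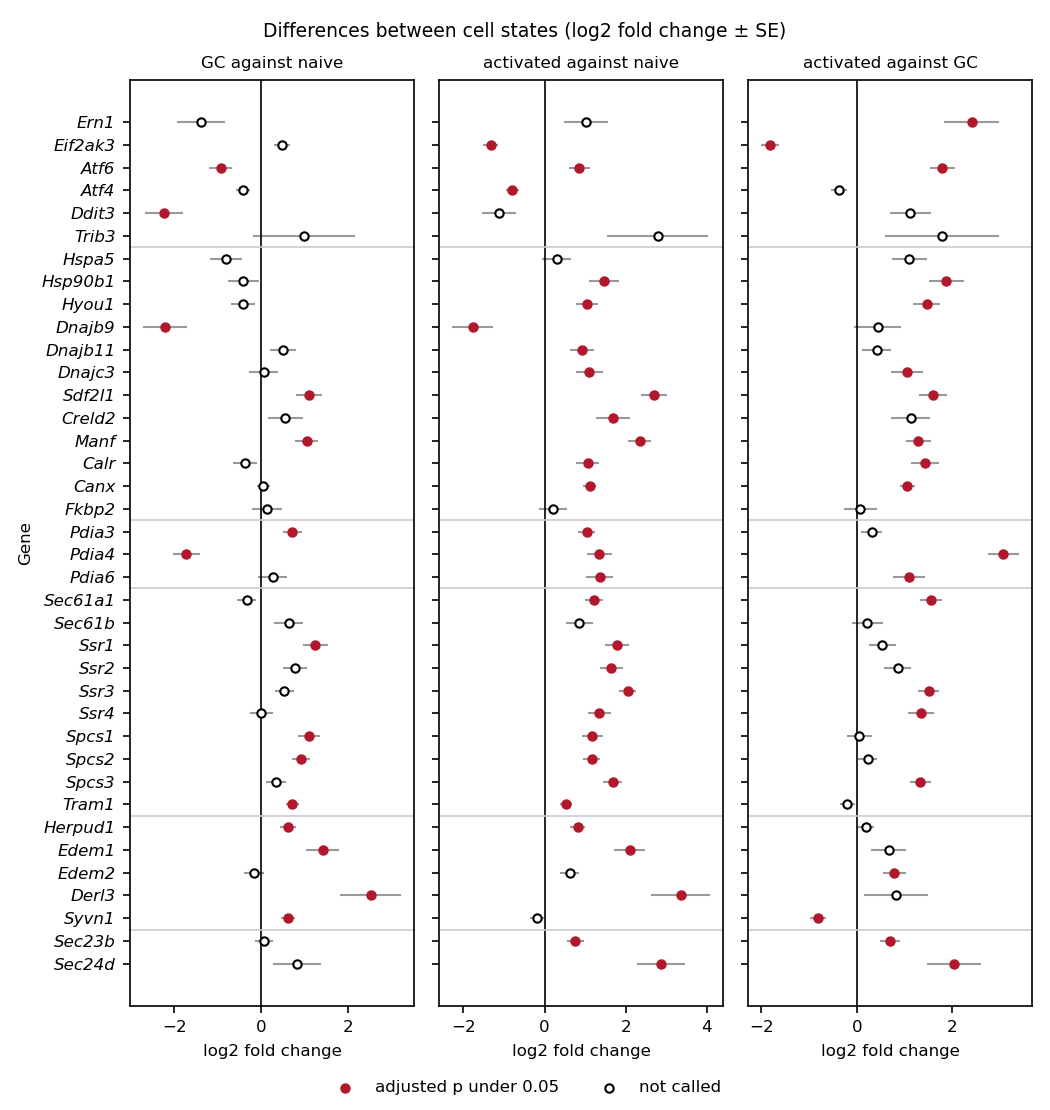
Log2 fold change ± SE of each gene for GC against naive, activated against naive and activated against GC cells (edgeR, 9 columns with the activated libraries summed by letter). Filled points have an adjusted p under 0.05, open points do not, and grey lines separate the roles. Most points lie right of 0 in the middle panel, where 27 genes are higher and 3 lower.

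The sensors and transcription factors did not move as a block. In activated against naive cells 1 of the 6 was higher and 2 were lower (16.7% and 33.3%, against 17.9% and 12.5% of all genes). Their summed level was 819 ± 130 CPM in naive, 648 ± 44 in GC and 556 ± 54 in activated cells. Atf6 encodes the membrane-bound ATF6. It stood at 99.8, 68.5 and 88.8 CPM in the naive libraries A, B and C, 45.1, 47.2 and 42.0 in GC A, B and C, and between 88.7 (CpG B) and 215 (LPS A) in the activated libraries. GC libraries lie below all others, and letter A is the highest of the activated libraries. The log2 fold change was 0.86 ± 0.26 (SE) for activated against naive cells (edgeR adjusted p = 0.0322) and -0.94 ± 0.26 for GC against naive cells (edgeR adjusted p = 0.0211). Both calls rest on single libraries: over 15 alternatives each, the adjusted p ranged from 0.0052 to 0.119 and from 0.00572 to 0.0756. Without the letter A libraries the activated call was lost with a log2 fold change of 0.58. That call was also lost without naive C or letter C and with only the columns compared.

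Eif2ak3 (PERK, the kinase that phosphorylates eIF2α) went the other way. Its level was 131, 132 and 112 CPM in the naive libraries A, B and C and 180, 156 and 187 in GC A, B and C, while the activated libraries ran from 33.2 (CD40 B) through a median of 52.5 to 58.9 (CpG A). No group overlaps another. Activated cells were lower than naive cells (log2 fold change -1.33 ± 0.19, edgeR adjusted p = 0.00073) and lower than GC cells (log2 fold change -1.81 ± 0.19, edgeR adjusted p = 0.000152). The GC level against naive did not pass (0.48 ± 0.19, edgeR adjusted p = 0.0777), but did in 5 of 15 alternatives (without naive B, letter B or letter C, without a filter, and with only the columns compared), where it was 0.48 to 0.60.

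Ern1 (IRE1) was the least abundant of the 38 per length of transcript in GC and activated cells. It had 7.15, 7.55 and 12.3 CPM in the naive libraries A, B and C, 1.97, 4.86 and 3.43 in GC A, B and C, 13.2 to 13.7 under letter A, 7.26 to 10.2 under B and 23.9 to 37.7 under C. All activated libraries lie above all GC libraries, and those of letter B overlap the naive ones. Activated against GC cells gave a log2 fold change of 2.41 ± 0.57 (edgeR adjusted p = 0.0134, 0.000188 to 0.0831 over 15 alternatives). The call was lost without GC A, without GC C or without letter C, where the log2 fold change was 2.14, 2.42 and 1.67. Against naive cells the difference was 1.02 ± 0.55 and did not pass (edgeR adjusted p = 0.198).

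The effectors of the PERK arm were highest in naive cells or scarce. Atf4, whose translation rises when eIF2α is phosphorylated, had 515, 665 and 465 CPM in the naive libraries A, B and C, 434, 374 and 425 in GC A, B and C, and 266 (LPS C) to 338 (CD40 B) in the activated libraries. The 3 ranges do not overlap. It fell by 0.79 ± 0.17 on the log2 scale in activated against naive cells (edgeR adjusted p = 0.00634). Ddit3, which encodes CHOP, was highest in naive B: it had 33.8, 87.1 and 25.2 CPM in the naive libraries A, B and C, 8.85 to 11.1 in GC and 16.6 to 29.7 in activated libraries. GC cells were lower than naive cells (log2 fold change -2.25 ± 0.44, edgeR adjusted p = 0.00369), and the activated difference of -1.12 ± 0.42 did not pass (edgeR adjusted p = 0.0715). Without naive B these were -1.44, still called, and -0.29. The activated difference passed without naive C (-1.43, edgeR adjusted p = 0.0239), with libraries unsummed and with DESeq2. Activated cells against GC cells gave 1.12 ± 0.43 (edgeR adjusted p = 0.0841), which passed in 4 of 15 alternatives. A second Ensembl locus of the name Ddit3 overlaps the one used and is listed at 0 in every library, and how counting treated overlapping loci is not given in the sources used here, so the Ddit3 counts are uncertain. Trib3, a pseudokinase induced by CHOP, stayed at 15.9 CPM or below in every library and at 0 in naive B. No state difference of it passed, with log2 fold changes of 1.00 ± 1.18 for GC and 2.78 ± 1.24 for activated against naive cells. Its activated difference from naive cells passed without naive A (4.57, edgeR adjusted p = 0.0404), without naive B (2.29, edgeR adjusted p = 0.0104), with libraries unsummed and with DESeq2. Its difference from GC cells passed without naive B and with only the columns compared. The GC difference from naive cells ranged from 0.49 to 2.77 over 15 alternatives and passed in none.

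The chaperones and folding factors carried the largest share of the summed level: 2858 ± 715 CPM in naive, 2299 ± 160 in GC and 5405 ± 2267 in activated cells. In activated against naive cells 9 of the 12 were higher and 1 lower (75% and 8.33%, against 17.9% and 12.5% of all genes), with a median log2 fold change of 1.08. Of the 12, 2 were higher and 1 lower in GC against naive cells (16.7% and 8.33%, against 16.4% and 15.4%), a share higher that is near that of all genes. In activated against GC cells 7 were higher and 0 lower (58.3% and 0%, against 14.3% and 10.6%).

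Hspa5 is the gene of BiP, the main HSP70 chaperone of the ER. It had 715, 1391 and 609 CPM in the naive libraries A, B and C, 485, 549 and 522 in GC A, B and C, 1003 to 1009 under letter A, 653 to 675 under B and 1461 to 1658 under C. Naive B lies between letters A and C, naive A just above letter B and naive C just below it. The log2 fold change of activated against naive cells was 0.30 ± 0.36 (edgeR adjusted p = 0.59, 0.0484 to 0.977 over 15 alternatives). It was 0.85 and passed without naive B, and -0.02 without letter C. Naive B is also the library with the most erythroid marker RNA. The part of other cells in its Hspa5 level was not tested.

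Of the other large chaperones, Hsp90b1 (GRP94, the HSP90 of the ER) had 289, 354 and 421 CPM in the naive libraries A, B and C, 234, 313 and 254 in GC A, B and C, and 497 (CpG B) to 1710 (CpG C) in activated libraries. Every activated library is above all others. Its log2 fold change was 1.47 ± 0.36 against naive cells (edgeR adjusted p = 0.014) and 1.87 ± 0.37 against GC cells (edgeR adjusted p = 0.00499). The first of these calls was lost without naive A, as were those of Creld2 and Pdia6. Calr, a lectin chaperone, was the most abundant of the 38 per kilobase of exon in all 3 states, at 239 CPM per kilobase in naive, 186 in GC and 483 in activated cells. Its call in activated against naive cells (log2 fold change 1.06 ± 0.29, edgeR adjusted p = 0.0204) was lost without naive A, naive C or letter C and with only the columns compared. Canx, the membrane-bound lectin chaperone, had 238 to 286 CPM in naive, 222 to 288 in GC and 483 to 610 in activated libraries, with a log2 fold change of 1.11 ± 0.16 against naive cells (edgeR adjusted p = 0.000692).

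Among the smaller folding factors, Sdf2l1 and Manf had the largest rises. Sdf2l1, a partner of BiP, had 24.5, 30.3 and 32.4 CPM in the naive libraries A, B and C, 62.7, 65.7 and 58.2 in GC A, B and C, and 95.3 (CpG B) to 297 (CD40 C) in the activated libraries. The states form 3 separate ranges in the order naive, GC, activated. The log2 fold change was 2.69 ± 0.31 for activated against naive cells (edgeR adjusted p = 0.000224) and 1.10 ± 0.30 for GC against naive cells (edgeR adjusted p = 0.0184, 0.00173 to 0.0652 over 15 alternatives). The GC call was lost without GC A, GC B or naive A, and with libraries unsummed. Manf, a secreted ER-resident protein, showed the same order with 62.5 to 77.4 CPM in naive, 132 to 149 in GC and 203 to 528 in activated libraries. Its log2 fold changes against naive cells were 2.34 ± 0.28 (activated, edgeR adjusted p = 0.000246) and 1.05 ± 0.27 (GC, edgeR adjusted p = 0.0136).

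Dnajb9 (ERdj4, an HSP40 co-chaperone of BiP) was the one chaperone that was lower. It had 112, 177 and 53.7 CPM in the naive libraries A, B and C, 24.2 to 25.4 in GC, and 12.8 (CD40 B) to 61.6 (CD40 C) in activated libraries. GC cells lie below all naive libraries, and letter C reaches the level of naive C. The log2 fold change was -2.21 ± 0.51 for GC (edgeR adjusted p = 0.00944) and -1.78 ± 0.50 for activated against naive cells (edgeR adjusted p = 0.0254, 0.00154 to 0.0924 over 15 alternatives). Leaving out naive A, naive B, letter A or letter B each ended the activated call, with log2 fold changes of -1.78, -1.22, -1.68 and -1.42. The call was also lost without a filter, with only the columns compared and under the replicate block. Fkbp2, a prolyl isomerase of the ER, did not pass in any state comparison and had 39.5 ± 18.8, 43.5 ± 2.4 and 44.3 ± 16.5 CPM in naive, GC and activated cells.

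All 3 protein disulfide isomerases, which form and shuffle disulfide bonds, were higher in activated than in naive cells, where 17.9% of all genes were. Their summed level was 794 ± 95 CPM in naive, 866 ± 70 in GC and 1808 ± 755 in activated cells. Pdia4 (ERp72) set the GC cells apart: it had 241, 232 and 297 CPM in the naive libraries A, B and C, 65.1, 93.9 and 73.5 in GC A, B and C, and 348 (CD40 B) to 991 (CpG C) in activated libraries. The 3 ranges do not overlap. GC cells were lower than naive cells with a log2 fold change of -1.72 ± 0.31 (edgeR adjusted p = 0.00243), and activated cells were higher than GC cells with 3.07 ± 0.33 (edgeR adjusted p = 0.000165), the largest rise of the 38 in that comparison. Per kilobase of exon Pdia4 ranked 4 of the 38 in naive, 22 in GC and 2 in activated cells. Pdia3 (ERp57, the partner of the lectin chaperones) was instead higher in GC than in naive cells, with 472 to 560 CPM against 285 to 366 (log2 fold change 0.72 ± 0.21, edgeR adjusted p = 0.0279), a call lost without GC A, GC B or naive A. Pdia6 differed in level between the letters, at 388 to 400 CPM under A, 334 to 359 under B and 774 to 957 under C, against 165 to 271 in naive libraries (log2 fold change 1.36 ± 0.34, edgeR adjusted p = 0.0139).

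The translocation and signal peptidase genes were higher in activated than in naive cells with 1 exception. Their summed level was 935 ± 13 CPM in naive, 1431 ± 129 in GC and 2368 ± 555 in activated cells, with no overlap between states. In activated against naive cells 9 of the 10 were higher (90%, against 17.9% of all genes), with log2 fold changes of 0.53 to 2.04 over the 10. Against GC cells, activated cells had 4 of the 10 higher and 0 lower (40% and 0%, against 14.3% and 10.6%). In GC against naive cells 4 were higher (Ssr1, Spcs1, Spcs2 and Tram1) and none lower (40% and 0%, against 16.4% and 15.4%). Ssr3, a subunit of the translocon-associated complex TRAP, had the largest activated rise: 160, 95.5 and 142 CPM in the naive libraries A, B and C, 201, 206 and 172 in GC A, B and C, and 418 (CpG A) to 642 (CpG C) in activated libraries (log2 fold change 2.04 ± 0.22, edgeR adjusted p = 0.000143). Its sister subunit Ssr1 had 88.8, 39.7 and 90.2 CPM in the naive libraries A, B and C and 168 to 181 in GC libraries (log2 fold change 1.25 ± 0.29, edgeR adjusted p = 0.0083). Spcs1, a subunit of the signal peptidase complex, had similar means in GC and activated cells, 79.2 ± 15.4 and 79.9 ± 21.1 CPM, against 36.6 ± 10.5 in naive cells (log2 fold change of GC against naive 1.12 ± 0.26, edgeR adjusted p = 0.00845). Sec61b, the small β subunit of the translocon channel, was the one gene of the class that did not pass in activated against naive cells (0.86 ± 0.33, edgeR adjusted p = 0.0772), where naive B had 106 CPM and the other naive libraries 57.9 and 45.2.

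ER-associated degradation, which retrotranslocates misfolded proteins for the proteasome, was the class with the highest share of GC calls: 4 of 5 genes were higher in GC than in naive cells (80%, against 16.4% of all genes). The call of Herpud1 was lost without GC A, GC B or naive A and under the replicate block, and that of Syvn1 without GC C or naive A. Derl3 also lost its call in some alternatives, given below, and only Edem1 kept it in all 15. The summed level was 641 ± 60 CPM in naive, 1081 ± 51 in GC and 1098 ± 381 in activated cells. Derl3, a derlin of the retrotranslocation complex, had 9.78, 3.88 and 3.50 CPM in the naive libraries A, B and C, 26.9, 40.0 and 32.5 in GC A, B and C, 33.2 to 38.6 under letter A, 14.6 to 17.0 under B and 94.3 to 133 under C. Naive libraries lie below all others, and the GC range overlaps letter A. It had the largest rise of the 38 in both comparisons with naive cells, with log2 fold changes of 3.35 ± 0.72 for activated (edgeR adjusted p = 0.00798) and 2.53 ± 0.70 for GC cells (edgeR adjusted p = 0.022, 0.000456 to 0.0822 over 15 alternatives). The GC call was lost without GC B, naive B or naive C, where the log2 fold change was 2.37, 2.39 and 2.27. It was also lost without a filter, with libraries unsummed and under the replicate block. Edem1, a mannose-trimming factor, had 122, 55.7 and 137 CPM in the naive libraries A, B and C, 269 to 286 in GC, and 230 (CpG B) to 707 (CD40 C) in activated libraries, with log2 fold changes against naive cells of 2.09 ± 0.38 (activated, edgeR adjusted p = 0.00308) and 1.42 ± 0.38 (GC, edgeR adjusted p = 0.0167). Syvn1 (HRD1, the ubiquitin ligase of the pathway) was highest in GC cells, with 464, 485 and 570 CPM in GC A, B and C against 304 to 366 in naive and 215 to 368 in activated libraries. Activated cells were lower than GC cells (log2 fold change -0.81 ± 0.17, edgeR adjusted p = 0.00642), so that the class split between its members.

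Both COPII genes were higher in activated than in naive and GC cells, where 17.9% and 14.3% of all genes were. Sec24d, a cargo-binding coat subunit, had 5.30, 2.79 and 5.06 CPM in the naive libraries A, B and C, 7.74, 9.36 and 6.13 in GC A, B and C, and 8.76 (LPS B) to 70.8 (CD40 C) in activated libraries. Its log2 fold change was 2.87 ± 0.58 against naive cells (edgeR adjusted p = 0.00535) and 2.05 ± 0.56 against GC cells (edgeR adjusted p = 0.0255, 0.00254 to 0.179 over 15 alternatives). The call against GC cells was lost without letter C, where the log2 fold change was 1.17, and without GC A, B or C. It was also lost under the replicate block. Sec23b, the GTPase-activating coat subunit, rose less, from 53.6 to 73.2 CPM in naive to 76.7 to 144 in activated libraries (log2 fold change 0.76 ± 0.21, edgeR adjusted p = 0.0229), a call lost without naive A or letter C and with only the columns compared. Its call against GC cells (0.69 ± 0.21, edgeR adjusted p = 0.0378) was lost without any 1 GC library, without letter A or letter C, and under the replicate block.

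**Figure D4:**
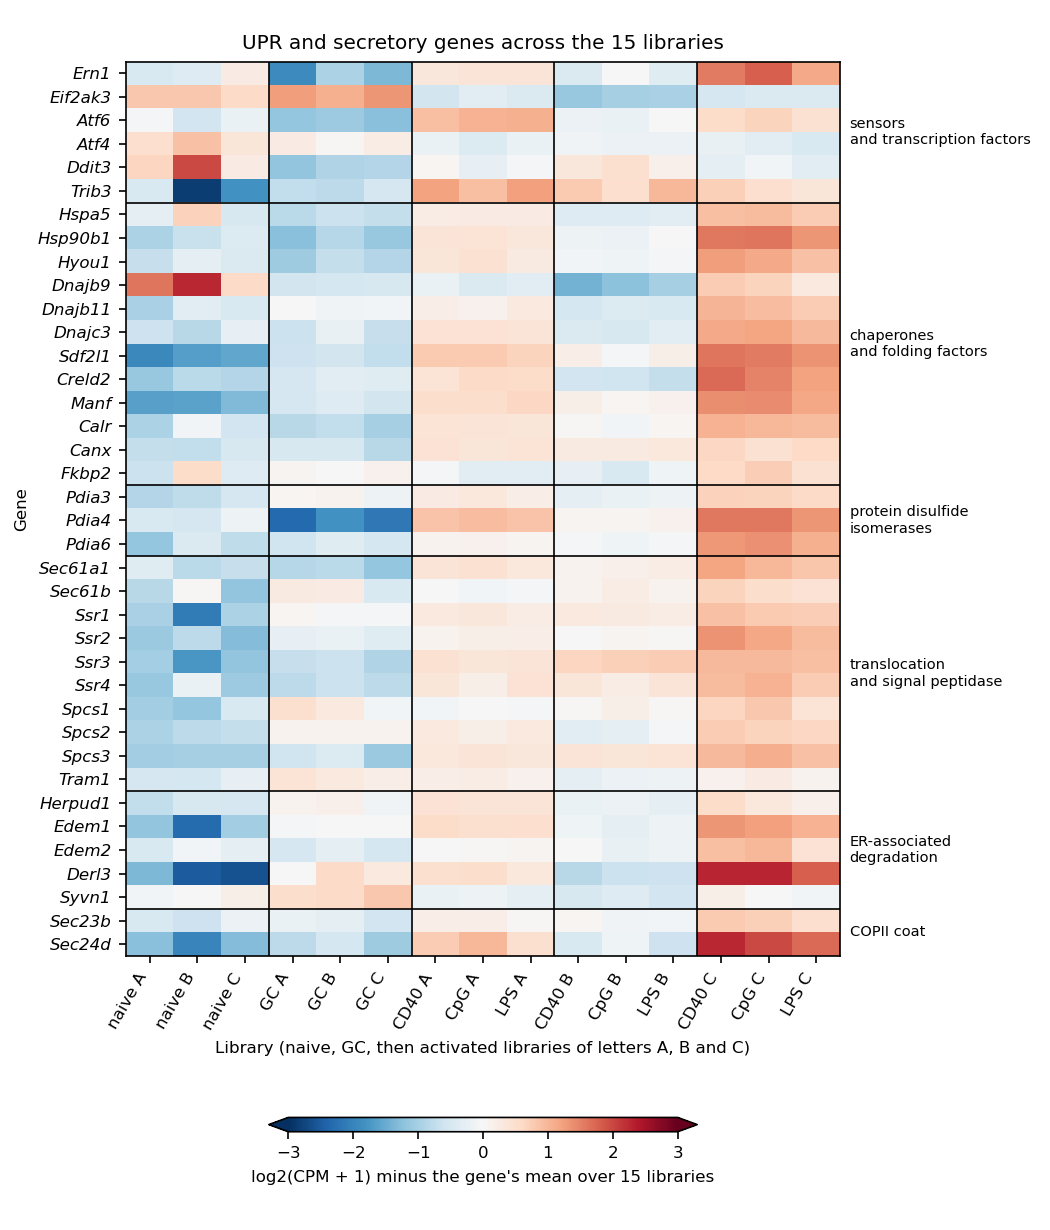
Each gene's log2(CPM + 1) in each of the 15 libraries minus its mean over the libraries, with genes ordered by role and colours limited to the range of -3 to 3. The 3 libraries under letter C are red for most rows below the sensors, the naive libraries are mostly blue, and Dnajb9, Ddit3 and Eif2ak3 depart from this pattern.

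Within the activated cells the letters differed in most of the 38 genes. The 9 libraries were fitted with letter and stimulus as terms, which tests letters against the spread of same-letter libraries and not against independent cultures. Under letter C 31 genes were higher and 2 lower than under A, or 81.6% and 5.26%, where 11.5% and 11.9% of the 15727 genes tested were so. Against letter B 35 were higher and 2 lower under C (92.1% and 5.26%, against 17.5% and 17.3% of all). Letter A against letter B had 25 higher and 3 lower (65.8% and 7.89%, against 16.6% and 14.5%). The median log2 fold changes of the 38 were 0.63, 0.90 and 0.42 in these comparisons, and those of all genes -0.02, -0.02 and 0.01. Every C library exceeded every A and B library for 31 of the genes (81.6%, against 9.19% of all genes tested), and 22 were ordered B below A below C with no overlap (57.9%, against 3.44%). The 7 exceptions to the first count were Atf4, Atf6, Ddit3, Eif2ak3, Trib3, Herpud1 and Tram1, of which 5 belong to the sensors and transcription factors.

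**Figure D5:**
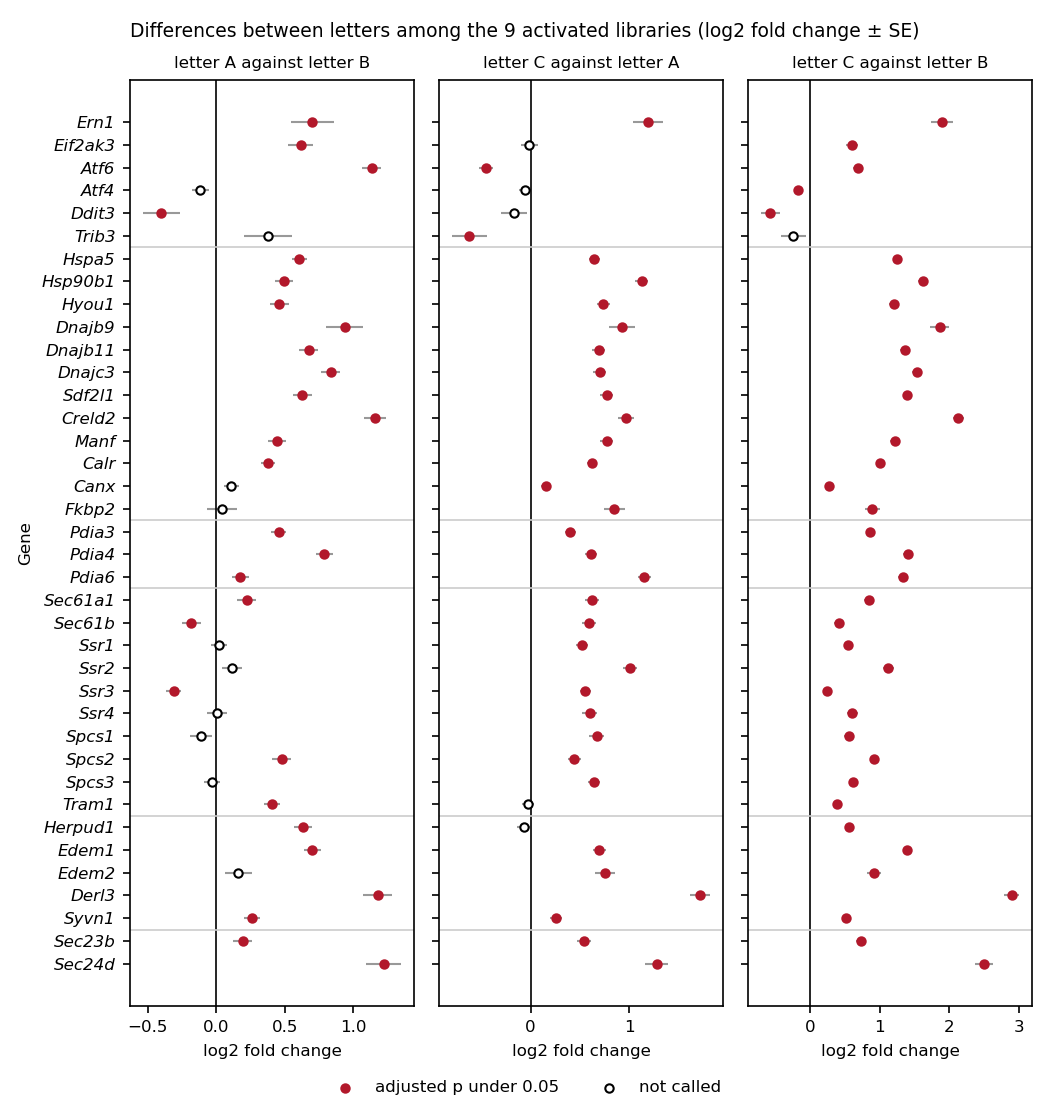
Log2 fold change ± SE of each gene between letters among the 9 activated libraries (edgeR with letter and stimulus as terms). Filled points have an adjusted p under 0.05, open points do not, and grey lines separate the roles. In the right panel 35 genes are higher and 2 lower under letter C than under B.

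All 12 chaperones and folding factors and all 3 disulfide isomerases were higher under C than under both other letters, as were both COPII genes. Of all genes 11.5% were higher under C than under A and 17.5% higher under C than under B. Derl3 had the largest differences, with log2 fold changes of 1.72 ± 0.10 for C against A (edgeR adjusted p = 8.47e-13) and 2.89 ± 0.11 for C against B (edgeR adjusted p = 1.12e-16). Sec24d followed: it had 19.9 to 29.0 CPM under A, 8.76 to 12.9 under B and 47.7 to 70.8 under C, and log2 fold changes of 1.28 ± 0.12 and 2.50 ± 0.13 (edgeR adjusted p = 4.32e-09 and 3.29e-14). Creld2, a secreted ER stress protein, had 140 to 157 CPM under A, 63.5 to 70.5 under B and 246 to 343 under C, with log2 fold changes of 0.97 ± 0.08 and 2.13 ± 0.08 (edgeR adjusted p = 1.55e-09 and 2.62e-15). Its range under letter B lies just above that of naive cells, which had 47.1 to 59.2 CPM. Hsp90b1 rose from 733 ± 14 to 1598 ± 165 CPM between A and C (SD, n = 3 libraries of 1 letter), and Pdia6 from 394 ± 6 to 877 ± 94. Canx moved least of the chaperones, from 527 ± 11 to 586 ± 33 CPM, and its call for C against A (edgeR adjusted p = 0.0389) was lost in most alternatives, among them each left-out library except CpG C.

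Sensors and transcription factors differed from this order. Ern1 rose with the chaperones (log2 fold change 1.19 ± 0.15 for C against A and 1.89 ± 0.16 for C against B, edgeR adjusted p = 8.72e-07 and 3.79e-10). Atf6 was highest under A, with 207 ± 12 CPM against 94.1 ± 8.0 under B and 151 ± 10 under C, and was lower under C than under A (log2 fold change -0.45 ± 0.07, edgeR adjusted p = 1.88e-05). Eif2ak3 had 54.7 ± 4.3 and 54.1 ± 1.4 CPM under A and C, with no call between them, and was lower under B at 35.7 ± 2.3 (C against B 0.60 ± 0.09, edgeR adjusted p = 5.26e-06). Ddit3 was highest under B, with 26.8 ± 3.0 CPM against 20.2 ± 2.2 under A and 18.0 ± 1.7 under C (C against B -0.57 ± 0.13, edgeR adjusted p = 0.00144). Trib3 was lower under C than under A (9.48 ± 1.33 against 14.6 ± 1.8 CPM, log2 fold change -0.62 ± 0.18, edgeR adjusted p = 0.0109), a call lost without LPS A or LPS C with a highest adjusted p of 0.125 over 13 alternatives. Atf4 was lower under C than under B by a small amount (290 ± 23 against 328 ± 9 CPM, log2 fold change -0.17 ± 0.06, edgeR adjusted p = 0.0303), a call lost without LPS C or any of the B libraries, with adjusted p from 0.0119 to 0.271 over 13 alternatives. It was also lost with no stimulus term.

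The translocation genes set letter A apart from the chaperones. All 10 were higher under C than under B (against 17.5% of all genes), and 9 were higher under C than under A (90%, against 11.5%). Between A and B 3 were higher under A and 2 were lower (30% and 20%, against 16.6% and 14.5%), with a median log2 fold change of 0.01. Of the 12 chaperones 10 were higher under A than under B (83.3%), with a median of 0.55. Ssr3 was lower under A than under B, with 418 to 442 against 511 to 549 CPM (log2 fold change -0.31 ± 0.06, edgeR adjusted p = 9.8e-05). Sec61b was called lower under A as well (99 to 104 against 112 to 123 CPM, log2 fold change -0.18 ± 0.07, edgeR adjusted p = 0.0472, 0.0295 to 0.338 over 13 alternatives), and this call was lost without CD40 A, CpG A, CpG B or LPS B. It was also lost with DESeq2, without a filter and with no stimulus term. Tram1, a translocation cofactor, did not differ between C and A beyond its error, at 264 ± 13 and 269 ± 9 CPM, nor did Herpud1, a stress-induced factor of the degradation complex, at 242 ± 33 and 253 ± 6 CPM.

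The summed level of plasma cell marker genes, a list that includes Xbp1, differed between the letters in the same order as that of the chaperones. Of 11 such genes tested, 7 were higher and 1 lower for C against A (63.6% and 9.09%, against 11.5% and 11.9% of all genes). For C against B 10 were higher and 1 lower (90.9% and 9.09%, against 17.5% and 17.3%), and for A against B 8 and 1 (72.7% and 9.09%, against 16.6% and 14.5%). The summed level of 12 such genes was 3354 to 3450 CPM under A, 2336 to 2512 under B and 5311 to 7278 under C, against 826 to 866 in naive and 2351 to 2882 in GC libraries, and 11 or 12 of them were detected in each activated library. Immunoglobulin genes took 1.85% to 1.92% of counts under A, 1.16% to 1.20% under B and 5.03% to 7.96% under C. Jchain, the joining chain of secreted IgM and IgA, had 89.8 ± 22.4 CPM under A, 17.9 ± 1.0 under B and 2172 ± 654 under C, with 1267 to 1588 in GC libraries. Prdm1 (BLIMP1, a regulator of plasma cell fate) had 10.2 ± 1.7, 3.66 ± 0.98 and 71.7 ± 11.8 CPM under A, B and C, and Sdc1 (CD138, a plasma cell surface marker) 7.68 ± 0.87, 10.2 ± 1.7 and 17.3 ± 2.4. Mzb1, an ER protein of antibody-secreting cells, had 1096 ± 62, 901 ± 39 and 1614 ± 130 CPM, against 171 ± 21 in naive and 462 to 557 in GC libraries. The part of these cells in the letter differences was not tested. Myeloid markers (6 genes) summed to 21.4 to 26.1 CPM under A and 3.33 to 6.25 under B and C, with Csf1r at 0 in all activated libraries. Dendritic cell markers (5 genes, Clec9a at 0 in all libraries) summed to 196 to 235 CPM under B and 62.1 to 85.1 under A and C, and the naive B cell markers to 1379 to 1443 under A and 500.4 to 648 under B and C. Markers of marginal zone and B-1 B cells (6 genes) were highest under C among the activated libraries. They summed to 199.7 to 225.2 CPM under C, 87.6 to 99.4 under A and 135.5 to 151.9 under B, against 315.9 to 375.2 in naive libraries. Of these 6 genes 4 were higher and 1 lower for C against A (66.7% and 16.7%, against 11.5% and 11.9%). GC B cell markers summed to 998.6 to 1090 CPM under A, 603 to 698 under B and 485 to 628 under C. The part of these in the letter differences was not tested.

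No difference between the 3 stimuli passed at any of the 38 genes. No gene was called in CD40 against CpG, CD40 against LPS or CpG against LPS (edgeR), and 0 had an unadjusted p under 0.05. Over all genes 0.0127%, 0.0191% and 0% were called. The median log2 fold changes of the 38 were 0.03, 0.11 and 0.09, and the 95% intervals were wide, reaching a median of 0.813, 0.814 and 0.814 to either side on the log2 scale, since the letters spread the libraries of each stimulus. The highest value in CpG against LPS was that of Ern1, 0.44 with an interval from -1.18 to 2.06. With the letter as a block, this median was 0.139 for each pair and again no gene of the 38 was called (edgeR, smallest adjusted p of 0.87, 0.306 and 0.166), though 0, 6 and 5 had an unadjusted p under 0.05, all of them higher than LPS. Sec24d was the highest of these in CpG against LPS, with a log2 fold change of 0.46 and an interval from 0.21 to 0.71. Under the block 27, 44 and 45 genes of all were called, against 2, 3 and 0 without it, and DESeq2 called 12, 11 and 7 genes of all and 0 of the 38.

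Within letter C the library titled LPS was the lowest of the 3 for 36 of the 38 genes, with Canx and Eif2ak3 as the exceptions, where 27.9% of all genes tested had it lowest. In letters A and B the LPS library was lowest for 14 and 8 of the genes (36.8% and 21.1%, against 35.7% and 36.2% of all). LPS C also had the lowest plasma cell marker sum (5311 CPM, against 6298 in CD40 C and 7278 in CpG C) and the lowest immunoglobulin share (5.03%, against 7.15% and 7.96%). The part of these in the order was not tested.

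Genes with an ERSE or ERSE-II match, as printed above, were compared with those whose promoter holds neither, as a description. The sensors and transcription factors with a promoter (Ern1, Eif2ak3, Atf4, Ddit3 and Trib3) are all among those without a match. Role and motif therefore cannot be told apart here. For C against B the 11 genes with a match had a median log2 fold change of 1.33 (0.26 to 2.89) and the 20 without one had 0.80 (-0.57 to 2.50). The medians were closer for C against A, at 0.69 and 0.60, and were 0.61 and 0.29 for A against B. For activated against naive cells the medians were 1.11 and 1.10. In GC against naive cells they were 0.27 and 0.51, with 3 of 11 and 6 of 20 higher and 0 and 3 lower. Of all genes 16.4% were higher and 15.4% lower in that comparison.

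Other genes of the same pathways, 104 in 7 lists, gave the setting. Of 11 further regulators of the response, 2 were higher and 2 lower in activated than in naive cells (18.2% each, against 17.9% and 12.5% of all genes). The share higher is near that of all genes. Xbp1 had 104, 112 and 111 CPM in the naive libraries A, B and C, 157, 200 and 146 in GC A, B and C, and 1331 ± 65, 830 ± 20 and 1422 ± 87 under letters A, B and C, with a log2 fold change of 3.50 ± 0.24 against naive cells (edgeR adjusted p = 1.04e-05). The difference between C and A did not pass (0.10 ± 0.05, edgeR adjusted p = 0.229) and higher under C than under B (0.78 ± 0.06, edgeR adjusted p = 2e-11). Ppp1r15a (GADD34, which reverses eIF2α phosphorylation) had 733, 1029 and 280 CPM in the naive libraries A, B and C, 56.5 to 61.5 in GC libraries and 46.2 ± 6.8 in activated cells (log2 fold change of activated against naive -3.85 ± 0.42, edgeR adjusted p = 0.000154).

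Of the structural lists, oxidative folding had 6 of 10 genes higher in activated than in naive cells and 0 lower, oligosaccharyltransferase and calnexin cycle 10 of 13 and 0, signal recognition and other translocon parts 8 of 13 and 0, further degradation factors 7 of 14 and 1, and ER to Golgi transport 18 of 26 and 0. In the same order of lists, 60%, 76.9%, 61.5%, 50% and 69.2% were higher, against 17.9% of all genes. The shares lower were 0%, 0%, 0%, 7.14% and 0%, against 12.5%. The median log2 fold changes of the lists were 1.07, 1.05, 0.85, 0.52 and 0.71. In GC against naive cells the same lists had 3, 3, 3, 2 and 5 genes higher (30%, 23.1%, 23.1%, 14.3% and 19.2%, against 16.4% of all genes) and 0, 1, 0, 3 and 5 lower (0%, 7.69%, 0%, 21.4% and 19.2%, against 15.4%). Several of these shares are near those of all genes. Ero1l, an oxidase that recharges the disulfide isomerases, had 17.8 ± 7.4 CPM in naive and 165 ± 28 in activated cells (log2 fold change 3.26 ± 0.28, edgeR adjusted p = 4.31e-05), and Stt3a, a catalytic subunit of the oligosaccharyltransferase, 80.6 ± 18.7 and 258 ± 67 (1.72 ± 0.22, edgeR adjusted p = 0.000364). Kdelr2, which retrieves escaped ER proteins, had 27.4 ± 1.2 and 92.2 ± 15.1 CPM (1.80 ± 0.16, edgeR adjusted p = 5.31e-05). Its relative Kdelr3 was at 0 in every naive library and at 2.56 ± 1.65 CPM in activated cells, at least 24.6-fold higher than the floor of 3 counts per naive library, a call lost without letter B or C. Pdia5, another disulfide isomerase, was at 0 in every naive and GC library and at 0.978 ± 0.671 CPM in activated cells, at least 9.4-fold above the naive floor. It lost its call without any 1 letter and under the replicate block.

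Of the targets of ATF4 and CHOP, 14 of 17 tested were higher in activated than in naive cells and 1 was lower (82.35% and 5.88%, against 17.9% and 12.5% of all genes). The median log2 fold change was 2.54, the same with the 4 genes at 0 in all naive libraries set to their lower bounds. Chac1, a glutathione-degrading enzyme, was at 0 in every naive library, at 1.66 to 1.98 CPM in GC and at 14.5 ± 4.8 CPM in activated cells, at least 140-fold above the naive floor. Between the letters these lists differed: for C against A, 6 of 10 oxidative folding genes, 12 of 13 oligosaccharyltransferase genes, 8 of 13 translocon genes, 7 of 14 degradation factors and 21 of 26 transport genes were higher, with 1, 0, 0, 1 and 1 lower, and 5 of 17 ATF4 and CHOP targets, with 3 lower. In that order 60%, 92.3%, 61.5%, 50%, 80.8% and 29.4% were higher, against 11.5% of all genes. The shares lower were 10%, 0%, 0%, 7.14%, 3.85% and 17.65%, against 11.9%. Rpn1, a subunit of the oligosaccharyltransferase, rose from 302 ± 10 CPM under A to 549 ± 79 under C (log2 fold change 0.86 ± 0.07, edgeR adjusted p = 1.62e-09), Lman1, a cargo receptor, from 90.8 ± 8.6 to 193 ± 25 (1.08 ± 0.07, edgeR adjusted p = 4.05e-12), and Txndc5, an isomerase abundant in plasma cells, from 165 ± 7 to 423 ± 86 (1.35 ± 0.08, edgeR adjusted p = 1.04e-11). Atf3, an ATF4 target, was highest under B, with 67.0 ± 4.0 CPM against 5.63 ± 0.90 under A and 26.2 ± 3.4 under C.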

How the data were processed

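Counts per gene were used as deposited. Per the labels' protocols, poly(A) RNA from 1 µg of total RNA was made into directional libraries, and the submitters' processing notes name STAR 2.7.10a, featureCounts 2.0.6, DESeq2 and the build mm10. The strand setting, the treatment of multimapped reads and the annotation release are not given in the sources used here. Gene symbols and exon lengths were taken from GENCODE M21 (GRCm38).

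Differences were tested in R 4.3.3 with edgeR 4.0.16 (quasi-likelihood test, TMM scaling, filterByExpr, Benjamini-Hochberg adjustment over all genes tested, threshold 0.05), after a check on simulated data. Naive, GC and activated cells were compared over 9 columns, with the 3 activated libraries of a letter summed. Letters were compared over the 9 activated libraries with a stimulus term, and stimuli over the same libraries without a block. Alternatives were DESeq2 1.42.0, its size factors, no filter, other sample sets, a replicate block and leaving out each replicate.

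The genes and lists were chosen with earlier results of these data known. Named were the 6 sensors and transcription factors, Hspa5, Xbp1 and 4 plasma cell genes always, and the 5 genes called with the largest change in each direction of each comparison. Of the 2 called genes with the largest change of each other list, only some were named. Left out for C against A were Vldlr and Nfe2l2, lower under C (log2 fold change -1.87 and -0.62). Creb3l2, Ero1lb, Ddost, Srprb, Srp19, Edem3 and Os9, all higher, were left out too. For activated against naive cells Vldlr, Tram2, Sec61g, Vcp and Selenos, all higher, were left out. Further genes were named after their values were seen, to describe each role. Same-letter activated libraries deviated together (r of 0.636 to 0.761 over 9 pairs, and 9 of 9 libraries closest to their own letter). The stimuli were therefore also compared with the letter as a block, as an alternative to the main fit without one. This choice comes from the data, since the labels give only the letter. The correlations cannot tell pairing by letter apart from titles with exchanged letter and stimulus.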

Additional observations from a re-analysis of the deposited data

How the results depend on the processing

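The number of the 38 genes called stayed within 1.5 times in every alternative run. With 1 replicate left out it was 10 to 17 for GC against naive, 21 to 33 for activated against naive, 14 to 26 for activated against GC, 31 to 33 for C against A, 36 to 37 for C against B, 23 to 28 for A against B and 0 for the stimuli. With the letter as a replicate block it was 13, 28 and 15 for the 3 state comparisons and 0 for the stimuli. Across naive, GC and activated cells same-letter libraries showed little shared deviation: it correlated at -0.124 to 0.115 over 21 pairs, with 4 of 15 libraries closest to their own letter. This cannot decide whether a letter stands for a shared animal or day, since other differences between libraries enter the same deviations. With 1 replicate left out, the log2 fold change changed direction for Hspa5 in activated against naive cells (-0.0233 without letter C, up to 0.848 without naive B), for Eif2ak3 in C against A (0.0304 without CpG A and 0.0148 without CpG C, down to -0.0469 without CD40 C) and for Atf4 in C against A (0.0136 without LPS A and without LPS C, down to -0.118 without CpG A). None of these was called with all libraries. The cause was not tested.

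Over all genes, the number called in activated against GC cells moved from 3992 to 7510 with only the columns compared, 6350 with libraries unsummed, 6589 without naive B, and 2403 to 2644 without any 1 GC library or letter B. In activated against naive cells it moved from 4885 to 7348 with libraries unsummed. Without a filter the log2 fold changes of all genes in that comparison had a median of 0.62 in place of 0.19.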
